A study of Mus musculus with 8 samples.

Results

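Activation that remained in microglia of mice treated with iguratimod during experimental autoimmune encephalomyelitis (EAE) was examined against naive microglia, in 2 genotypes. The comparison rests on 4 arrays of the 8 in the series, namely iguratimod-treated EAE and naive microglia of the control genotype and of a conditional knockout, paired within genotype. They were chosen by their titles alone. Every group holds 1 array, and how many animals gave its RNA is not labelled.

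All mice were C57Black/6J by their labels. The control genotype is marked FL, or F/F on a further pair of EAE arrays marked p50 whose meaning the labels do not give, and was taken as the floxed control. The source label of the treated control array says wt, so a mouse without floxed alleles cannot be told apart from a floxed one there. The knockout is marked icKO, and the series title describes it as a conditional loss of a gene in oligodendroglia, so the gene was targeted in other cells than those measured. The driver of the recombinase, the induction of EAE, the drug dose, the time points and the age of the mice are not given in the sources used here. The genotype labels were not checked by the expression of the targeted gene. The EAE arrays without the drug are set beside the treated ones for orientation. The naive control served as the reference in the design text. A floxed control that received the drug without EAE was not analysed here.

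Microglia are macrophages that live in the brain and spinal cord from early life. In EAE, a T cell driven model of multiple sclerosis, they are known to respond to interferon from infiltrating lymphocytes by raising MHC molecules, guanylate-binding proteins and chemokines, to divide, and to lose part of their resting gene programme. Iguratimod is an antirheumatic small molecule known to dampen NF-kB signalling and to inhibit macrophage migration inhibitory factor.

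Values below are levels, log2(intensity + 16), or differences of levels between arrays, where 1 unit is a doubling. A pair is iguratimod-treated EAE minus naive within a genotype, given as control first and icKO second. The arrays had median intensities of 243.1 to 268.6. Among 30702 named genes, 18234 passed a filter on dim values and were tested, and the median difference over them was 0.02 in both pairs. All 11 measured microglia markers lay above the array median of named genes on every array, and their summed level ran from 18.95 to 19.14 on the 4 arrays. Of the neuron and oligodendrocyte precursor markers, 0 lay above the array median on any of them. On all 4 arrays 1 of 7 measured astrocyte markers (Slc1a3) and 1 of 7 measured oligodendrocyte markers (Mag) lay above it. So did 1 of 6 endothelial markers on the icKO naive array. Of the 9 markers of border-associated macrophages, 7 lay above it on the control arrays and 6 on the icKO arrays. Cx3cr1, the fractalkine receptor of microglia, was level, at 18.26, 18.27, 18.26 and 18.27 on the control naive, icKO naive, control treated and icKO treated arrays. Differences can be seen at such levels, since B2m, described below, was at 18.03 and 18.00 in naive and differed by 0.91 and 1.23. Whether the probes of Cx3cr1 were near saturation was not tested.

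Markers of infiltrating leukocytes are given here before the results they accompany. Those of neutrophils and monocytes moved with the states. The summed level, the log2 of the summed intensity, of the 14 neutrophil markers was 14.76 on the control naive array, 19.83 in control EAE and 15.42 under iguratimod. In icKO it was 12.96, 16.70 and 17.07. The 9 measured monocyte markers summed to 11.82, 14.76 and 12.49 in control and to 11.51, 14.79 and 13.64 in icKO. Both treated arrays thus stood above their naive array, the icKO one by more. The 10 measured T cell markers summed to between 11.10 and 11.14 on the 4 arrays, where 1 or 2 of them lay above the array median. The part of leukocyte RNA in the results below was not tested, and fewer cells of a type cannot be told apart from less RNA per cell.

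Iguratimod-treated EAE was first tested against naive over both genotypes, with limma, in a model where state and genotype add up, fitted to all 8 arrays and adjusted over the tested genes by the Benjamini-Hochberg method. Mki67, which encodes the proliferation antigen Ki-67, was the gene that passed. On the control arrays its level was 8.02 in naive, 11.53 in EAE and 11.23 under iguratimod. On the icKO arrays it was 7.49, 11.09 and 10.61. Both treated arrays stood far above both naive arrays and close to the untreated EAE arrays, and the pairs differed little. Mki67 rose by 3.17 ± 0.17 (SE), with a limma adjusted p of 0.0298, which is 9.29-fold in control and 8.70-fold in icKO.

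That 1 call is 0.00548% of the genes tested in the higher direction, and 0 genes (0%) were called lower. At an unadjusted p under 0.05 there were 1308 higher genes (7.17%) and 686 lower ones (3.76%). The call on Mki67 rests on all 8 arrays, since no gene passed in limma when any 1 array was left out, with the lowest adjusted p then between 0.0689 and 0.584. In the same fit untreated EAE against naive, which shares the naive arrays, gave 617 higher genes (3.38%) and 71 lower ones (0.389%). Iguratimod against untreated EAE gave 0 calls by limma (0%), with 1551 genes at an unadjusted p under 0.05. A p that misses the threshold does not show that the treated arrays were like either of the others. In the model a difference between the pairs counts as spread and widens the SE.

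Without a test, 80 genes (0.439%) were at least 2-fold higher under iguratimod in both pairs and 41 (0.225%) at least 2-fold lower. After quantile normalization these counts were 59 and 66, so the split between higher and lower depends on scaling. Of the kinds of gene that are named here, 35 were among the higher and 3 among the lower, the rest being of kinds that are counted only, such as predicted genes, pseudogenes and small RNAs. The 12 higher genes with the largest smallest difference were Mki67, Fcgr4, Ifi30, H2-Ab1, Ifi204, Ccl2, Cxcl9, H2-D1, H2-K1, Ifi211, Ifi207 and H2-Eb1. Of these, 5 belong to the MHC pathway lists and 3 to the p200 family of interferon-inducible DNA sensors. Over all genes 5821 (31.9%) were higher in both pairs to any degree and 4653 (25.5%) lower in both.

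**Figure D1:**
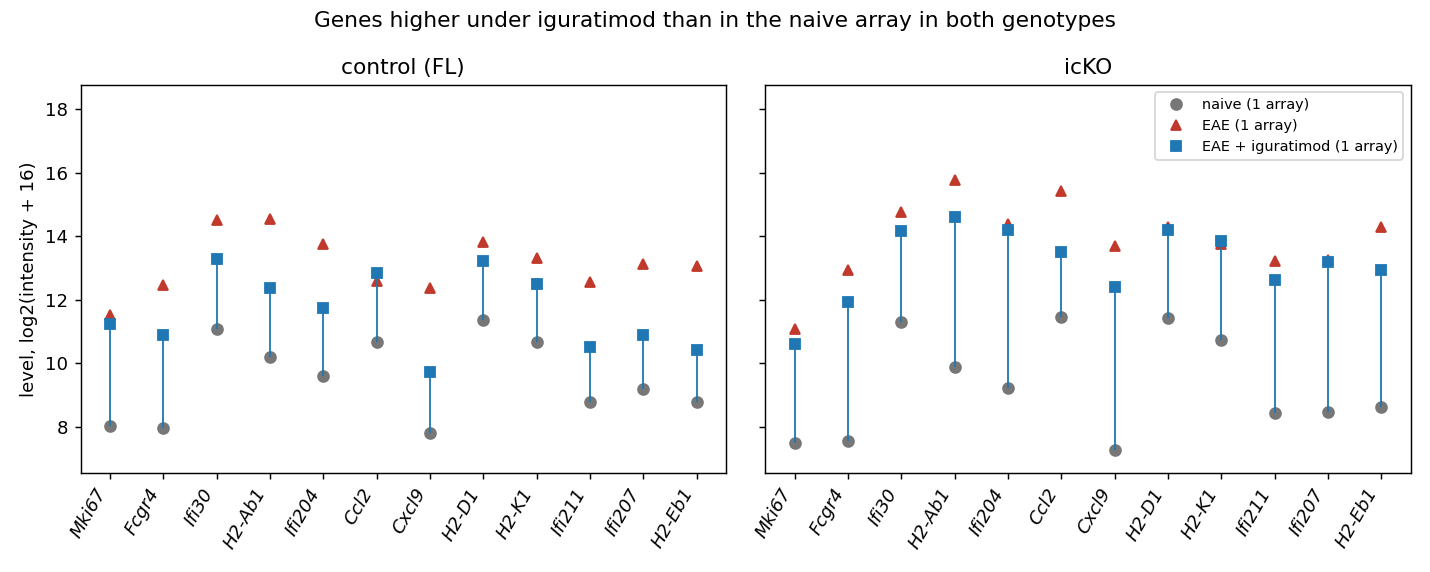
Levels, log2(intensity + 16), of the 12 genes with the largest shared difference, on the naive, EAE and iguratimod-treated arrays of control (left) and icKO (right), 1 array per point, with a line joining naive to treated. The treated array lies above the naive one for every gene because the genes were chosen that way. The lines are longer in icKO for 10 of the 12, Mki67 and Ccl2 being the exceptions.

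MHC class II molecules present antigen to helper T cells. H2-Ab1, a class II beta chain, was at 10.21 in control naive, 14.53 in EAE and 12.38 under iguratimod, and at 9.88, 15.76 and 14.60 in icKO. The treated arrays lay between naive and EAE in both genotypes. The differences from naive were 2.17 and 4.72, that is 4.51-fold and 26.35-fold, with a mean of 3.45 ± 0.56 (limma adjusted p = 0.162). H2-Eb1, another beta chain, was at 8.78, 13.06 and 10.43 in control and at 8.62, 14.30 and 12.94 in icKO. It followed the same order, with differences of 1.65 and 4.32 (adjusted p = 0.209). Ifi30 encodes the thiol reductase that unfolds antigens in endosomes. Its levels were 11.09, 14.51 and 13.27 in control and 11.31, 14.75 and 14.15 in icKO, and the pairs were closer, at 2.18 and 2.84 (adjusted p = 0.162).

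Of the 12 class II pathway genes tested, 0 passed, 10 were higher in both pairs and 3 were at least 2-fold higher in both, which were H2-Ab1, H2-Eb1 and Ifi30. The list median was 0.53 in control and 0.99 in icKO, against 0.02 over all genes. Ciita, the master regulator of class II genes, was near the array median, with differences of 0.13 and 0.15. H2-Ob, a chain of the DO complex that restrains peptide loading, was at -0.36 and 0.16. On the treated arrays 1 of the 12 in control and 2 in icKO were at or above their untreated EAE level, beside 49.2% and 46.9% of all genes.

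The promoter of H2-Eb1 is shown since class II promoters are known for a Y box, the element read by the factor NF-Y. Promoter windows here run from 250 bases before to 50 after the gene start and come from RefSeq (GRCm38.p6). The motif CCAAT was searched on both strands, and capitals mark its matches (ATTGG on the other strand). The window is chr17:34305617-34305916 on the plus strand.
H2-Eb1: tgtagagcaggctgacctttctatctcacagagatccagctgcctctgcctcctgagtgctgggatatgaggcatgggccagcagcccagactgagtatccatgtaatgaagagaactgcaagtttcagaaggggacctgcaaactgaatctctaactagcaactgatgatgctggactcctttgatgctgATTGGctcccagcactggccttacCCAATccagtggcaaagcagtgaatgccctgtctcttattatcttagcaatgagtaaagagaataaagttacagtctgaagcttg
Of the 10 class II pathway genes with a window, 8 held CCAAT, and of the 10 class I pathway genes with one, 9 did, beside 42.3% of the 10148 tested genes with a window. H2-Ab1 and Ifi204 had no window in the table.

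MHC class I molecules show peptides to cytotoxic T cells and are raised by interferons of either type. H2-K1, a classical heavy chain, was at 10.67 in control naive, 13.32 in EAE and 12.49 under iguratimod, and at 10.74, 13.74 and 13.84 in icKO. The treated icKO array thus stood at the level of untreated EAE, and the control one below it. H2-D1, the other classical heavy chain, was at 11.37, 13.83 and 13.22 in control and at 11.42, 14.30 and 14.20 in icKO. Mean differences were 2.46 ± 0.31 for H2-K1 and 2.32 ± 0.24 for H2-D1, both with a limma adjusted p of 0.162. Probes of these polymorphic genes may share sequence with related class I genes, so each value is uncertain. B2m, the light chain, was at 18.03 and 18.00 in naive and at 18.94 and 19.22 under iguratimod, differences of 0.91 and 1.23. H2-M3, a nonclassical heavy chain that binds formylated peptides, differed by 1.01 and 2.35.

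The class I list had 0 of 12 genes passing, 11 higher in both pairs, and medians of 0.55 and 1.02. Levels under iguratimod were at or above untreated EAE for 0 of the 12 in control and for 5 in icKO. Over all genes these shares were 49.2% in control and 46.9% in icKO. Tapbp, the tapasin gene of the loading complex, was nearly level at 0.07 and 0.37, and Tap2, a peptide transporter chain, at -0.12 and 0.14. The 4 immunoproteasome genes tested, which cut peptides for class I, were all higher in both pairs and 0 passed. Psmb8, a catalytic subunit, differed by 0.67 and 0.82, and Psme1, an activator subunit, by 0.24 and 0.69.

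Interferon-induced GTPases, the guanylate-binding proteins and the immunity-related GTPases, attack vacuoles of intracellular pathogens. Igtp, an immunity-related GTPase, was at 10 in control naive, 11.47 in EAE and 11.26 under iguratimod, and at 10.16, 11.74 and 11.47 in icKO. Its pairs were nearly equal, with a mean of 1.28 ± 0.12 and a limma adjusted p of 0.162. Gbp2, a guanylate-binding protein, was at 8.14, 10.63 and 9.61 in control and at 7.90, 11.46 and 10.46 in icKO, differences of 1.48 and 2.57. Iigp1, another immunity-related GTPase, was the member that parted most, with 8.99 and 8.90 on the naive and treated control arrays and 8.63 and 10.12 in icKO. Of the 11 tested members 0 passed and 10 were higher in both pairs, and the list medians were 0.78 and 1.49.

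The p200 family senses DNA in the cytosol and nucleus and lies in 1 gene cluster, where related probes can cross-hybridise. Ifi204 was at 9.61, 13.75 and 11.74 in control and at 9.22, 14.39 and 14.18 in icKO. The control treated array stood midway between naive and EAE on this scale, and the icKO one close to EAE. Ifi207 was at 9.18, 13.14 and 10.89 in control and at 8.47, 13.25 and 13.20 in icKO, and Ifi211 at 8.79, 12.57 and 10.50 in control and at 8.43, 13.21 and 12.63 in icKO. Their differences were 3.27-fold and 26.58-fold for Ifi207, and 3.28-fold and 18.34-fold for Ifi211. Aim2, the inflammasome sensor of this family, differed by 0.02 and 0.16. Over the 8 members tested the medians were 0.42 and 2.0, 6 were higher in both pairs and 0 passed.

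Classical targets of type I interferon had a higher median in icKO, a gap that was not tested. Of 22 genes tested, 18 were higher in both pairs, 0 passed, and 13 were at least 2-fold higher in icKO against 0 in control. Over all genes those 2-fold shares were 2.04% in icKO and 1.78% in control. The list medians were 0.41 and 1.45. Oas1a, which makes the activator of RNase L, was at 8.93 in control naive, 10.60 in EAE and 9.35 under iguratimod, and at 8.67, 11.08 and 11.47 in icKO. Ifitm3, which blocks virus entry, was at 9.06, 11.51 and 9.62 in control and at 8.46, 11.12 and 11.04 in icKO. Usp18, the protease that turns off the interferon receptor, differed by 0.46 and 2.22, and Bst2, which tethers budding virions, by 0.55 and 1.79. Isg15, a ubiquitin-like modifier, was at 0.42 and 0.28, near the array median on all 4 arrays.

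Against untreated EAE, the same 22 genes were at or above the EAE level under iguratimod in 16 cases in icKO and in 1 case in control, beside 46.9% and 49.2% of all genes. The median difference from untreated EAE was -0.61 in control and 0.21 in icKO. The median of icKO minus control over the list was -0.18 on the naive arrays and 0.77 on the treated ones. The monocyte markers given above were also higher on the treated icKO array than on the treated control array.

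Promoters of 4 genes are shown that hold a motif found in many members of these interferon lists. The motif is the core of the interferon-stimulated response element, read as GAAA, any 2 bases and GAAA again, searched on both strands and marked in capitals (on the other strand TTTC, any 2 bases and TTTC). Fcgr4, described below with the Fc receptors, is included though it is not a member of these lists. The windows are chr1:171018676-171018975 on the plus strand for Fcgr4, chr11:58199306-58199605 on the plus strand for Igtp, chr3:142620413-142620712 on the plus strand for Gbp2 and chr1:173741760-173742059 on the minus strand for Ifi207.
Fcgr4: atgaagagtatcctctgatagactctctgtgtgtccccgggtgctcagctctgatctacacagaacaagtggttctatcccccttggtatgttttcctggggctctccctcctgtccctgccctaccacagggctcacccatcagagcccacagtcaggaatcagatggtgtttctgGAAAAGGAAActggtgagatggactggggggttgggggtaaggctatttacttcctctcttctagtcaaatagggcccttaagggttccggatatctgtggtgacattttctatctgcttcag
Igtp: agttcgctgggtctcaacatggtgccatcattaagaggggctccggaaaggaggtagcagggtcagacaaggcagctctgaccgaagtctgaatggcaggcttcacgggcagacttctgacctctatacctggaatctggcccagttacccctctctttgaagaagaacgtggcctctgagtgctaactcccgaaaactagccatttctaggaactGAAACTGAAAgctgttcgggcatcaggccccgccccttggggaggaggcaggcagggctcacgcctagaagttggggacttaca
Gbp2: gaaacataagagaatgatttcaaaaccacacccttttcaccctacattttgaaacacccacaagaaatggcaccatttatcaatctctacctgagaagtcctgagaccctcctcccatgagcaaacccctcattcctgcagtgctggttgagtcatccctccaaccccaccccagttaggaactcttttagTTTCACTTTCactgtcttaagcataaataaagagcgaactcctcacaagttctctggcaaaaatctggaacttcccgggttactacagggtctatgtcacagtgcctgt
Ifi207: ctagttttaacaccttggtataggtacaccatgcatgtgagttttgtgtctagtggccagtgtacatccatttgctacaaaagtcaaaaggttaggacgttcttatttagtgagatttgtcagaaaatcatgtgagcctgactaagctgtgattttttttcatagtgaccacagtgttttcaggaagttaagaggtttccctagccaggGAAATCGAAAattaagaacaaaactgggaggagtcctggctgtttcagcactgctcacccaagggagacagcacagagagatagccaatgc
The match starts 73 bases before the gene start in Fcgr4, 34 before it in Igtp, 59 in Gbp2 and 41 in Ifi207. A match describes the letters of the window and is neither a bound site nor a cause.

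The motif lay in 6 of the 6 GTPase genes with a window, in 9 of 15 type I interferon targets and in 5 of 7 p200 genes. In the class II and class I pathway lists, whose medians also lay above naive, it lay in 1 of 10 and 2 of 10. Among all tested genes with a window it lay in 419 of 10148 (4.13%). Of the genes at least 2-fold higher under iguratimod, 12 of 60 with a window held it in the control pair (20%) and 41 of 172 in the icKO pair (23.8%). In the homeostatic and immediate early lists described below it lay in 0 of 14 and 0 of 13. The STAT dimer motif TTCNNNGAA, searched apart, lay in 9.25% of tested genes with a window and in 4 of the 15 type I interferon targets. Matches of it and of the interferon motif overlapped in 24 of all 32851 windows.

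**Figure D2:**
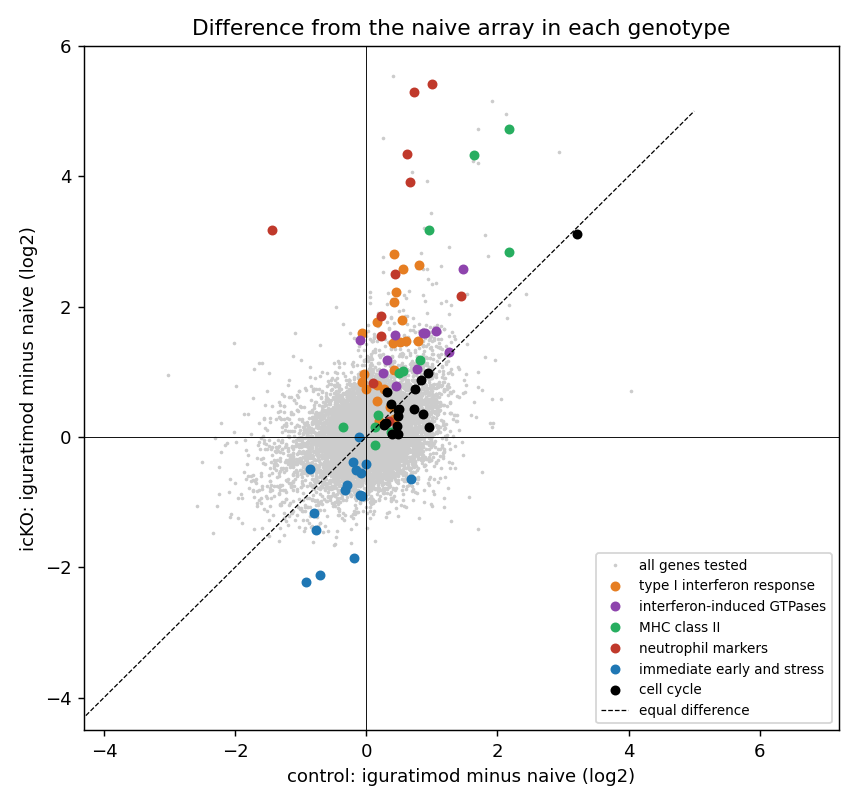
Difference of iguratimod-treated EAE from naive in control (x axis, log2) and in icKO (y axis, log2) for the 18234 genes tested, with 6 lists in colour and a dashed line of equal difference. Cell cycle genes lie near the line, with Mki67 at 3.22 and 3.12, whereas interferon, class II and neutrophil genes lie mostly above it and immediate early genes mostly below 0 on both axes.

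Chemokines are given with the CC family first. Ccl2, which attracts monocytes, was at 10.67 in control naive, 12.59 in EAE and 12.85 under iguratimod, and at 11.47, 15.42 and 13.51 in icKO. The control treated array was no lower than its EAE array, and the icKO one was. The differences from naive were 2.18 and 2.03 (limma adjusted p = 0.243). Ccl12, a close paralog of Ccl2 in the mouse, differed by 1.97 and 1.18. Ccl9, a chemokine of myeloid cells, differed by -0.58 and -0.92, lower in both pairs. Over the 10 CC chemokines tested 6 were higher in both pairs and 0 passed, and the medians were 0.26 and 0.31.

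Cxcl9, an interferon gamma induced attractant of activated T cells, was at 7.82, 12.37 and 9.74 in control and at 7.26, 13.68 and 12.41 in icKO. Both treated arrays lay between naive and EAE, at 3.78-fold and 35.49-fold of naive. Cxcl10, a related ligand of the same receptor, differed by 0.34 and 1.67. Cxcl16, a membrane-bound chemokine of macrophages, differed by 0.94 and 2.42. Cxcl13, the B cell attractant, was at 9.31, 11.98 and 9.72 in control and at 8.99, 14.63 and 14.53 in icKO. It stood near naive in treated control microglia and at the untreated EAE level in treated icKO microglia. The 5 CXC chemokines tested had medians of 0.41 and 2.42, 4 were higher in both pairs, and 0 passed.

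Of the Fc receptor genes, Fcgr4, an activating receptor for IgG2, was at 7.95 in control naive, 12.48 in EAE and 10.88 under iguratimod, and at 7.56, 12.94 and 11.93 in icKO. The treated arrays stood 7.65-fold and 20.71-fold above naive, with a mean of 3.65 ± 0.42 (limma adjusted p = 0.162). Fcgr2b, the inhibitory receptor, was higher by 0.60 and 0.72, and Fcer1g, the shared signalling chain, by 0.36 and 0.03. None of the 7 tested passed and 5 were higher in both pairs. C4b, a complement component, was at 8.34, 11.83 and 9.40 in control and at 8.59, 11.87 and 10.94 in icKO. C1qa, a chain of the recognition unit of complement, differed by 0.04 and 0.03. Of 12 complement genes 10 were higher in both pairs and 0 passed, with medians of 0.15 and 0.42.

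Proinflammatory mediators were mostly higher in both pairs, by amounts that varied between genes and genotypes. Casp1, the inflammasome protease, was at 11.31 and 12.04 in naive and at 12.55 and 12.84 under iguratimod, a mean difference of 1.02 ± 0.17 (limma adjusted p = 0.163). Il1a, which encodes interleukin 1 alpha, differed by 1.28 in control and 0.09 in icKO. Its levels were 12.04 and 13.29 in naive and 13.32 and 13.38 under iguratimod, so the genotypes parted in naive. Il1b, which encodes interleukin 1 beta, differed by 0.18 and 1.90, and Tnf, the tumour necrosis factor gene, by 0.06 and 1.03. Il18, another substrate of caspase 1, differed by -0.12 and -0.09. The 13 genes tested had medians of 0.17 and 0.09, 10 were higher in both pairs, and 0 passed. Cd274, the checkpoint ligand PD-L1, was higher by 0.77 and 1.24 (adjusted p = 0.163).

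All 17 cell cycle genes tested were higher in both pairs, with medians of 0.49 and 0.42. Mki67 was the 1 that passed, and 12 had an unadjusted p under 0.05. Most of the others are dim, close to the array medians of named genes, which lie between 8.12 and 8.24, so their folds are understated. Top2a, the topoisomerase of chromosome segregation, was at 7.82 in control naive, 9.23 in EAE and 8.76 under iguratimod, and at 7.77, 8.72 and 8.76 in icKO. Ccna2, which encodes cyclin A2, was at 8.44, 9.40 and 9.27 in control and at 8.32, 9.50 and 9.19 in icKO. For both genes the treated arrays lay above both naive arrays, and the means were 0.96 ± 0.17 and 0.85 ± 0.13 (limma adjusted p = 0.176 and 0.162). Pcna, the replication clamp, parted most, at 0.95 in control and 0.16 in icKO. Under iguratimod 5 of the 17 were at or above untreated EAE in control and 5 in icKO, beside 49.2% and 46.9% of all genes.

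The promoter of Mki67, the gene that passed, is chr7:135716330-135716629 on the minus strand, with 3 CCAAT matches in capitals.
Mki67: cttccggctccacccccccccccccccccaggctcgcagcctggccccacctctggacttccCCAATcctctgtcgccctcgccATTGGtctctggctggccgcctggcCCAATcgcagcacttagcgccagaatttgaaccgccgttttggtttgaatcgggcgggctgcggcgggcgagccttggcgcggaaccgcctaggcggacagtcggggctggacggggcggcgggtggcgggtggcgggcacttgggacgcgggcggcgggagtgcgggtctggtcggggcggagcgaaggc
Of the 14 cell cycle genes with a window 13 held CCAAT, beside 42.3% of tested genes, and 0 held the interferon motif.

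Genes of the disease-associated state, which microglia take up around dying cells and plaques, stood mainly higher in icKO. Of 21 tested, 15 were higher in both pairs and 0 passed, and 9 were at least 2-fold higher in icKO against 0 in control. Over all genes those 2-fold shares were 2.04% in icKO and 1.78% in control. The list medians were 0.18 and 0.74. Clec7a, the beta-glucan receptor Dectin-1, was at 9.12 in control naive, 13.27 in EAE and 9.38 under iguratimod, and at 9.65, 15.14 and 14.24 in icKO. The treated control array stood near naive and the treated icKO array near untreated EAE. Cst7, a cysteine protease inhibitor, was at 8.85, 12.48 and 9.83 in control and at 8.88, 13.69 and 12.33 in icKO.

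Apoe, the lipid carrier, was at 9.80, 12.30 and 10.06 in control and at 9.98, 13.07 and 12.51 in icKO. Axl, a receptor for apoptotic cells, differed by 0.05 and 2.22, Itgax, which encodes CD11c, by 0.33 and 2.21, and Ch25h, which makes 25-hydroxycholesterol, by 0.06 and 2.14. Trem2, the lipid receptor that the full state depends on, was level or lower, at -0.03 and -0.34. Cybb, the catalytic subunit of the phagocyte NADPH oxidase, was at 8.61 and 9.31 on the naive and treated control arrays and at 8.33 and 12.40 in icKO. Lgals3bp, an interferon-inducible galectin ligand, differed by 0.88 and 3.21. Among cathepsins, Ctsc, which activates granule proteases, was higher by 1.19 and 1.66 (limma adjusted p = 0.219), and the 11 genes of that list had medians of 0.43 and 1.21. Several of these genes are also expressed by monocytes and macrophages from blood, whose markers stood higher on the treated icKO array.

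**Figure D3:**
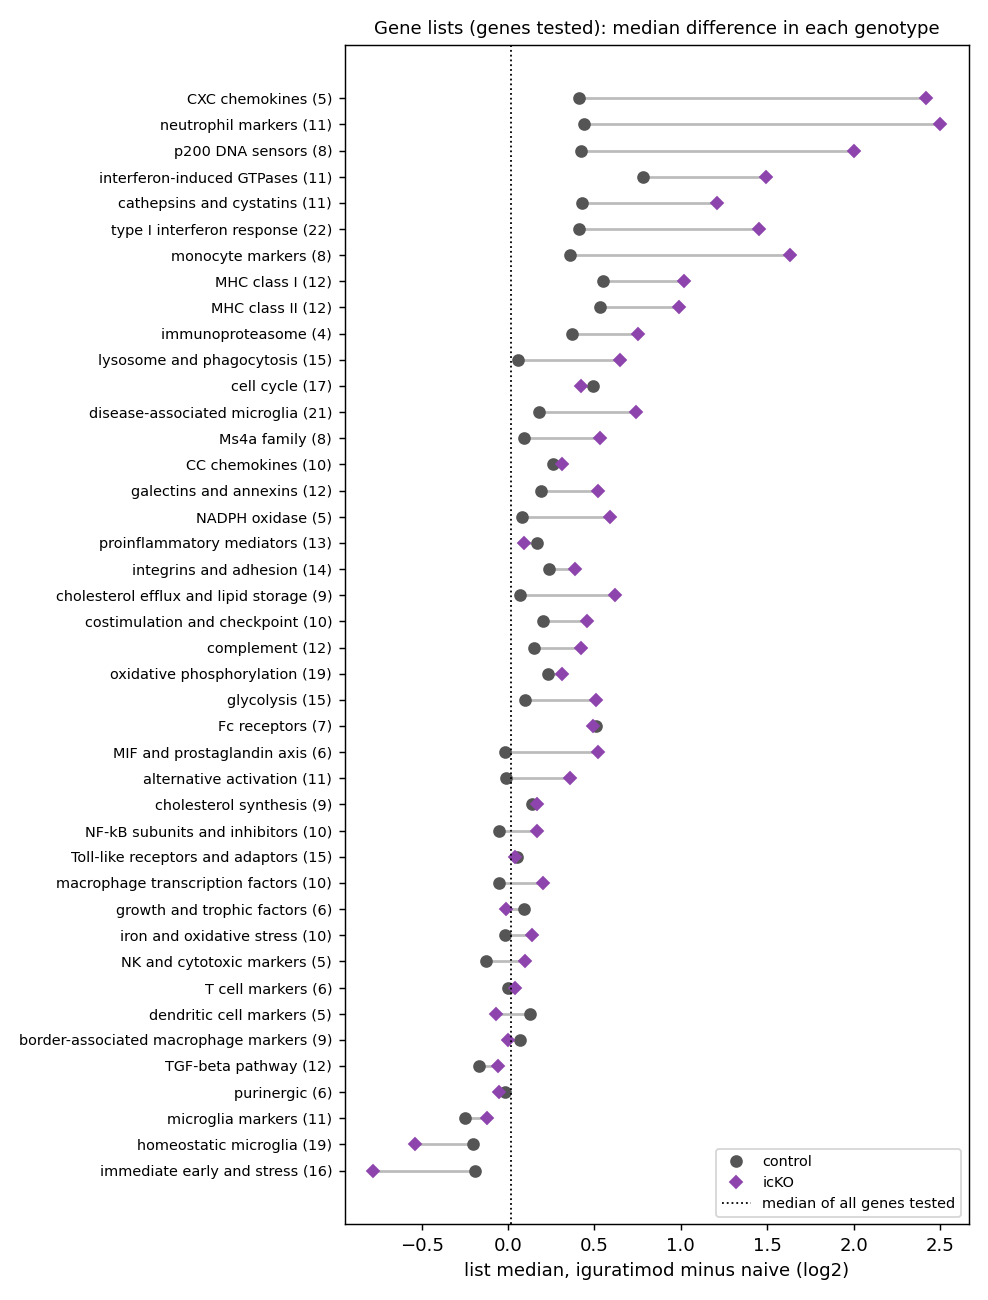
Median difference of iguratimod-treated EAE from naive (x axis, log2) for each gene list with at least 3 genes tested, in control (circles) and icKO (diamonds), with the number of genes tested in brackets and the median of all genes tested as a dotted line. The icKO median lies far to the right for CXC chemokines, neutrophil and p200 genes, at 2.42, 2.50 and 2.0, and homeostatic and immediate early genes lie to the left of the line in both genotypes.

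Genes of resting microglia were lower or level. Of the 19 homeostatic genes tested 0 were higher in both pairs, 11 were lower in both and 0 passed, with medians of -0.20 and -0.54. Fcrls, an Fc receptor-like scavenger receptor of microglia, was at 13.32 in control naive, 12.62 in EAE and 12.51 under iguratimod, and at 13.54, 11.61 and 11.93 in icKO. Its mean difference was -1.21 ± 0.28 (limma adjusted p = 0.231). Gpr34, a lysophosphatidylserine receptor, was at 13.13, 12.25 and 12.53 in control and at 13.89, 11.80 and 12.44 in icKO. P2ry12, the ADP receptor that steers microglial processes, differed by -0.44 and -0.99. P2ry13, a related ADP receptor, was at 16.49 on both control arrays, and at 17.56 in naive and 16.48 in treated icKO microglia. At least 2-fold lower were 0 genes of the list in control and 5 in icKO, beside 1.95% and 0.779% of all genes. The 5 stood 0.16 to 1.07 higher in icKO than in control in naive. Their icKO minus control gaps were -0.83 to -0.02 under iguratimod. Over the list the median of icKO minus control was 0.16 in naive and -0.02 under iguratimod. In icKO 16 of the 19 were at or above the untreated EAE level under iguratimod, and in control 4 were. Over all genes these shares were 46.9% in icKO and 49.2% in control.

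Immediate early genes, whose transcripts appear within minutes of a stimulus and also of cell isolation, were lower in both pairs in 14 of 16 cases, with medians of -0.19 and -0.78 and 0 passing. Jun, an AP-1 subunit, was at 12.20 in control naive, 10.12 in EAE and 11.50 under iguratimod, and at 13.55, 11.78 and 11.43 in icKO. Fosb, another AP-1 subunit, was at 11.31, 8.66 and 10.38 in control and at 12.95, 12.08 and 10.73 in icKO. Fos itself differed by -0.76 and -1.43, and Dusp1, a phosphatase that ends MAP kinase signals, by -0.79 and -1.17. The naive arrays themselves parted, the icKO one standing 0.66 higher by the list median, whereas the treated arrays parted by 0.19. Under iguratimod 13 of 16 were at or above untreated EAE in control and 1 was in icKO, beside 49.2% and 46.9% of all genes.

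At least 2-fold lower in both pairs, among genes of the kinds named, were Sox4, Gpr165 and Arrdc3. Sox4, a transcription factor of progenitor cells, was at 11.50 in control naive, 10.24 in EAE and 10.39 under iguratimod, and at 11.43, 9.67 and 10.30 in icKO. Its pairs were nearly equal, with a mean of -1.12 ± 0.19 and a limma adjusted p of 0.163. Gpr165, an orphan receptor gene, was at 9.99, 8.75 and 8.98 in control and at 10.24, 8.38 and 8.87 in icKO. Arrdc3, an arrestin-domain protein of receptor trafficking, differed by -1.26 and -1.0. Fcrl1, an Fc receptor-like gene known from B cells, differed by -0.91 and -1.08, and Nrp2, a receptor of semaphorins, by -1.33 and -0.88. The remaining named lower genes were Astx6, Astx5 and Mptx2, with differences between -0.75 and -1.12 in both pairs. Astx5 and Astx6 are members of 1 multicopy family on the X chromosome, so their probes may be shared.

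**Figure D4:**
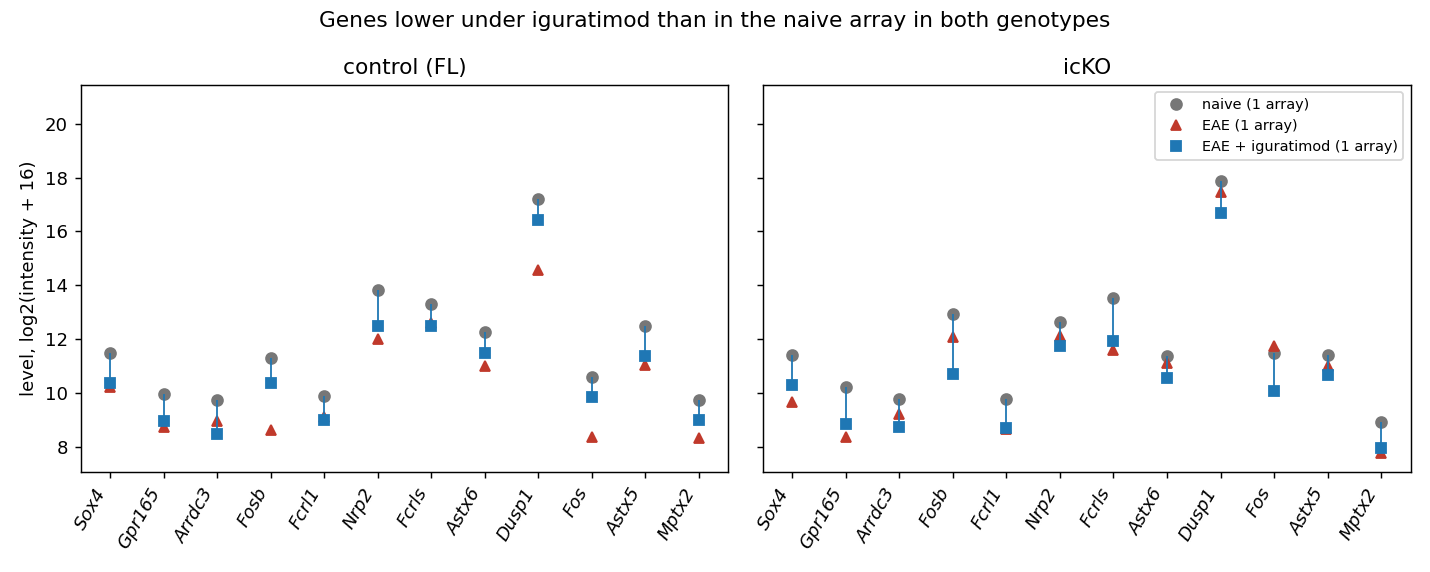
Levels, log2(intensity + 16), of the 12 genes with the largest shared lower difference, on the naive, EAE and iguratimod-treated arrays of control (left) and icKO (right), 1 array per point. The treated array lies below naive for each gene because the genes were chosen that way. Fosb and Fos were lower still in untreated EAE in control, at 8.66 and 8.40, but not in icKO, at 12.08 and 11.77.

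Whether the genotypes differed in their response was tested with limma on the difference of the pairs, which leaves 1 residual degree of freedom, taken from the EAE and p50 arrays. No gene passed (0%), the lowest adjusted p was 0.63, and 1410 genes had an unadjusted p under 0.05. This fit also made no call on simulated data with known genotype differences, so the absence of calls says nothing about whether the genotypes differed. The values that follow are differences between single arrays, and 7760 genes (42.6%) had opposite signs in the pairs. Over all tested genes the icKO difference was the larger by signed value in 9237 (50.7%). The icKO pair had 372 genes at least 2-fold higher (2.04%) and 142 lower (0.779%), and the control pair 324 (1.78%) and 356 (1.95%). Among genes of the kinds named, the counts were 201 higher and 30 lower in icKO, and 59 higher and 22 lower in control. Of the 201, 163 lay within 2-fold of naive in control, and of the 59, 24 lay within 2-fold of naive in icKO.

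The genes whose difference was larger in icKO by the widest margin were Cxcl13, Retnlg, Ngp, S100a8, Clec7a, S100a9, Cybb, Camp, Cxcl9 and Ifi207. Among them 5 are granule or secreted proteins of neutrophils. S100a9, a calprotectin subunit, was at 13.41 in control naive, 17.69 in EAE and 14.03 under iguratimod, and at 10.92, 14.90 and 15.25 in icKO. S100a8, the other subunit, differed by 1.0 and 5.41. Ngp, a neutrophil granule protein, was at 11.81, 16.62 and 12.54 in control and at 9.48, 14.65 and 14.78 in icKO. Retnlg, a resistin-like protein of granulocytes, was lower than naive in control, 10.59 to 9.15, and higher in icKO, 8.43 to 11.60. For S100a9, Ngp and Retnlg the icKO array stood below control in naive and above it under iguratimod, and the control EAE array was the highest of the 6.

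Over the 11 neutrophil genes tested the median of icKO minus control was -0.80 in naive and 1.22 under iguratimod, so the arrays parted at both ends of the pair. Under iguratimod 9 of the 11 were at or above untreated EAE in icKO and 0 in control, beside 46.9% and 49.2% of all genes. Ly6g, the lineage marker of neutrophils, was at 10.01 and 10.11 on the control naive and treated arrays and at 9.33 and 10.15 in icKO. Among monocyte genes, Ly6c2 differed by 1.26 and 2.92, Plac8 by 0.47 and 2.22, and Ccr2, the receptor for Ccl2, by -0.42 and 1.14. Clec7a, Cybb and Cxcl13 were close between genotypes in naive, within 0.53, and apart under iguratimod, by 4.86, 3.08 and 4.80. Ifi207 had the margin with the smallest SE of the 10, 3.02 ± 0.24. The 10 were chosen for their wide margins, and the SE rests on 1 residual degree of freedom, so this rank is not a test.

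The genes whose difference was smaller in icKO by signed value were Mid1, Rgs1, Ccl3, Prps1l1, Jun, Clec4a2, Rasl2-9, H1f3, Klf6 and Arhgap27. Smaller does not mean a weaker response here. Some fell further in icKO, such as Jun (-0.70 and -2.12) and Rgs1 (-0.18 and -1.85). Others rose in control only, such as Prps1l1 (1.46 and -0.07). Several of the 10 genes had parted already in naive. Ccl3, a chemokine of macrophages, was at 12.83 in control naive, 12.31 in EAE and 13.78 under iguratimod, and at 15.18, 15.86 and 14.53 in icKO. Rgs1, which damps G protein signals, was at 11.12 and 12.74 in naive and at 10.95 and 10.88 under iguratimod. Klf6, a zinc finger factor of the early response, was at 10.99 and 12.54 in naive and at 11.67 and 11.88 under iguratimod. With H1f3, a linker histone, and Jun, these 5 genes were 1.35 to 2.35 higher in icKO than in control in naive, and -0.07 to 0.74 apart under iguratimod.

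Mid1, a ubiquitin ligase gene of microtubules, was at 13.77 in control naive, 14.45 in EAE and 15.33 under iguratimod, and at 15.19, 14.95 and 14.27 in icKO. Its order was opposite in the genotypes. In the mouse Mid1 spans the edge of the pseudoautosomal region of X and Y, where copies vary. Clec4a2, an inhibitory lectin, was at 11.46 and 11.47 in control and at 11.79 and 10.40 in icKO, naive first. Arhgap27, a GTPase-activating protein, differed by 0.98 and -0.35. Rasl2-9, a Ran-like gene, differed by 0.99 and -0.36, and Prps1l1, a nucleotide synthesis gene known from testis, by 1.46 and -0.07.

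**Figure D5:**
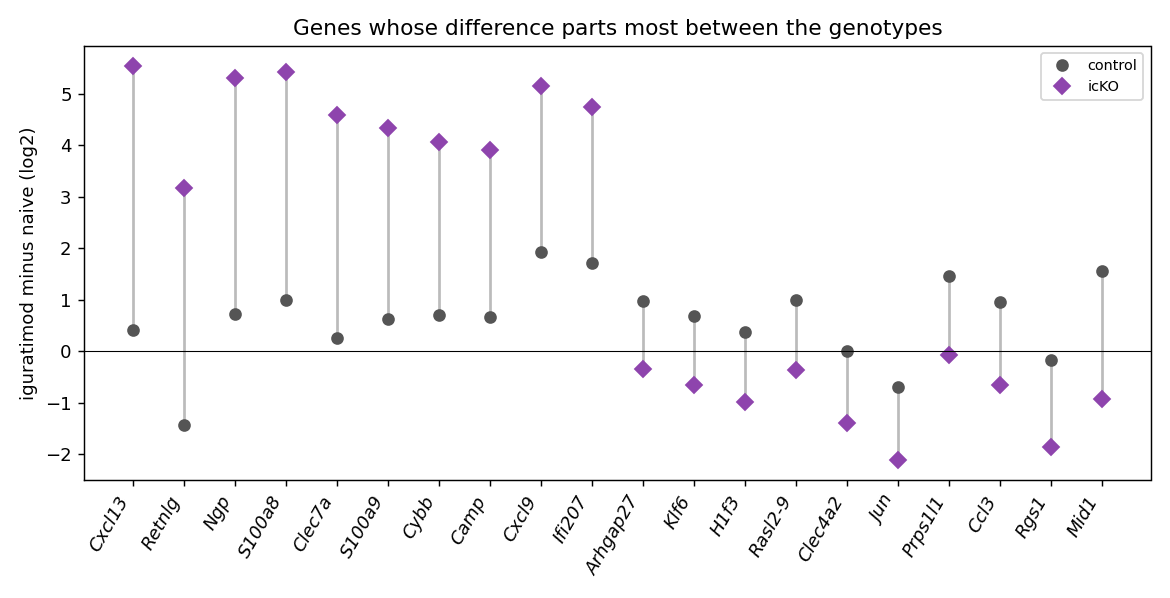
Difference of iguratimod-treated EAE from naive (y axis, log2) in control (circles) and icKO (diamonds), 1 array against 1 array per point. The 10 genes whose difference was larger in icKO by the widest margin are on the left and the 10 where it was smaller on the right. Larger and smaller are by signed value. Retnlg lies below 0 in control and above it in icKO, and Mid1 the other way, at 1.56 and -0.92.

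The medians of several pathways lay close to naive. The Toll-like receptor list had medians of 0.05 and 0.04 over 15 genes, NF-kB subunits and inhibitors -0.05 and 0.17 over 10, the TGF-beta pathway -0.17 and -0.06 over 12, and cholesterol synthesis 0.14 and 0.17 over 9, with 0 passing in each. Within them Tlr1, a partner of Toll-like receptor 2, differed by -0.43 and 1.17, and Nfkbia, which encodes the NF-kB inhibitor I kappa B alpha, by -0.54 and 0.87. Mif, the cytokine that iguratimod is known to inhibit, was at 9.09 in control naive, 10.70 in EAE and 9.38 under iguratimod, and at 8.77, 10.69 and 9.89 in icKO. It stood between naive and EAE in both genotypes. Cxcr4, a receptor that also binds this cytokine, was at 7.45, 8.49 and 6.37 in control and at 6.86, 10.59 and 8.47 in icKO. Both naive levels and the treated control level lay below the array medians of named genes, so its control difference is between dim values. Oxidative phosphorylation genes were higher in both pairs in 14 of 19 cases, with medians of 0.23 and 0.31. Rac2, the GTPase of the phagocyte oxidase, was higher by 0.85 and 1.08 (limma adjusted p = 0.162). Maf, a transcription factor of tissue macrophages, differed by -0.38 and -0.86, and Bhlhe41, a repressor expressed in microglia, by 0.85 and 0.57 (adjusted p = 0.298 and 0.209).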

How the data were processed

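RNA of microglia from 8 groups, 1 sample each, was hybridised to Affymetrix whole-transcript arrays after labelling with the GeneChip WT Pico kit, per the labels' protocols. The deposited values are summarised linear intensities, as their range shows, and Affymetrix Expression Console is named per the submitters' processing notes, with no version. The summary method, normalization and genome build are not given in the sources used here. Values were analysed as log2(intensity + 16) of the deposited intensities, which understates differences of dim genes, without further normalization. No detection calls were used, and precision is limited by how few arrays there are. Between 2.02% and 2.23% of an array's values exceed the range of a 16-bit scanner and were kept.

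Of 65956 rows, 31258 had 1 gene symbol in the platform annotation, 1492 had several and 33206 were unnamed here. After 1152 symbols were updated through RefSeq records (GRCm38.p6), 30702 genes remained, each by its brightest probe set (441 had several). A gene was tested if above the 50th percentile of its array on at least 1 array. State and genotype were fitted additively over all 8 arrays with limma 3.58.1 in R 4.3.3 (lmFit and eBayes, 3 residual degrees of freedom, prior SD 0.16), at a Benjamini-Hochberg adjusted p of 0.05. The p-values reflect only how far these arrays depart from additivity, which may be technical. The models were tested on simulated data. The additive fit recovered 28% of genes changed by 1 unit and 82% of those changed by 2, with 2 false calls. The fit of the genotype difference, with 1 residual degree of freedom, recovered none. In the measured data, the 12 genes named as higher in both pairs had mean differences of 2.11 to 3.65, and Mki67 alone passed. Whether the additive fit reaches such shares for genes whose pairs part, such as H2-Ab1 (2.17 and 4.72), was not tested. The knocked-out gene is not reported here.

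Named were the 12 genes higher and the 12 lower in both pairs with the largest smallest difference, and up to 6 passing genes in each direction. So were the 10 genes with the most positive and the 10 with the most negative icKO minus control margin, by signed value. From each list its passing members, the 2 highest, the 2 lowest and the member parting most were named. The brighter array had to exceed the 60th percentile of tested genes, and predicted, numbered, small RNA, pseudogene, chemosensory and antigen receptor genes were counted only. Il1a, Tnf, Usp18, Ifitm3, Bst2, B2m, Ccna2, Igtp, Cxcl16, P2ry12, Fos and Dusp1 are also given as list members, some chosen after their values were seen. The members and lists were chosen with earlier results of these data known. Alternatives were other filters, pseudocounts of 1 and 64, quantile normalization, median centring, mean probe sets, another prior, left-out arrays and a 1.5-fold threshold.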

Additional observations from a re-analysis of the deposited data

Results flagged for a closer look

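Differences from naive of opposite sign in the 2 genotypes are given here for 18 named genes. Opposite signs were common, in 7760 of the 18234 genes tested (42.6%), and each pair is 1 array against 1 array. In the limma fit of the genotype difference, which also made no call on simulated differences, the adjusted p of these genes ran from 0.63 to 0.994. Given as icKO minus control of the difference, Retnlg, a granulocyte gene, stood at 4.62, the chemokine receptor gene Cxcr4 at 2.68, Tlr1 at 1.59, the GTPase gene Iigp1 at 1.58, Ccr2 at 1.56, Nfkbia at 1.40, H2-Ob at 0.52 and Tap2 at 0.26. In the other direction Mid1 stood at -2.48, Ccl3 at -1.60, Prps1l1 at -1.53, Clec4a2 at -1.40, Rasl2-9 and H1f3 at -1.35 each, Klf6 at -1.33, Arhgap27 at -1.32, P2ry13 at -1.09 and Cx3cr1 at -0.01. The control differences of P2ry13 (0.00), Clec4a2 (0.01) and Cx3cr1 (0.01) were close to 0. Cxcr4 lay below the array median of named genes on both control arrays and on the icKO naive array. Among list medians, the genotypes had opposite signs for the MIF and prostaglandin axis (a gap of 0.54), alternative activation (0.37), macrophage transcription factors (0.25) and NK and cytotoxic markers (0.23). So they had for NF-kB subunits and inhibitors (0.22), iron and oxidative stress (0.17), T cell markers (0.05), growth and trophic factors (-0.10) and dendritic cell markers (-0.20). For several lists 1 of the medians was close to 0. In control it was -0.02 for the MIF axis, -0.01 for alternative activation and -0.02 for iron, and in icKO -0.01 for growth factors. The gaps were not tested.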

How the results depend on the processing

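The labels carry no replicate numbers, and the genotype term of the fit is what pairs naive with treated arrays, so no further block was run. The call on Mki67 was kept under other pseudocounts, scalings, probe set rules, priors and no filter, but 0 genes passed with the 4 arrays alone, without the p50 pair, or without any 1 array (0 to 0), where its adjusted p in limma ran from 0.0689 to 0.584. A filter at the 70th percentile, which tests fewer genes, gave 3 calls, Mki67 and, named after their values were seen, AY036118 and Gm11223. The fit of the genotype difference made no call on simulated differences either, so its lack of calls under the alternatives run for it (lowest adjusted p 0.469) says nothing about stability. At 1.5-fold, 443 genes were higher and 233 lower in both pairs, 1361 and 1019 in control, and 1263 and 783 in icKO. After quantile normalization 66 were lower in both pairs and 226 in icKO, and Ccl3 (-0.04), Klf6 (-0.11), C1qa (-0.17) and Cx3cr1 (-0.44) changed sign. The cause was not tested.

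List medians over both pairs kept their sign except that of T cell markers, at -0.01 with no filter. At the 70th percentile, where fewer genes were tested, CC chemokines stood at 0.53, proinflammatory mediators at 0.69, Fc receptors at 0.40, Toll-like receptors at 0.10, cholesterol synthesis at 0.16 and cell cycle at 0.71. With no filter CC chemokines stood at 0.23, proinflammatory mediators at 0.11, cholesterol synthesis at 0.15 and purinergic receptors at -0.05. A pseudocount of 1 gave Fc receptors 0.28. A pseudocount of 64 gave CC chemokines 0.32, proinflammatory mediators 0.25, Fc receptors 0.23 and cholesterol synthesis 0.09. Quantile normalization gave Fc receptors 0.28, Toll-like receptors 0.02, oxidative phosphorylation 0.16, integrins and adhesion 0.19 and purinergic receptors -0.16. The other 269 medians computed moved by less than 1 SD of the medians of the 2 pairs.

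With 1 array left out, the mean differences of 17 named genes changed sign. They ran from -1.45 to 3.18 for Retnlg, -0.78 to 1.42 for Mid1, -0.80 to 1.10 for Ccl3, -0.11 to 1.49 for Prps1l1, -0.21 to 0.84 for Rasl2-9, -0.83 to 0.22 for H1f3, -0.56 to 0.58 for Klf6, -0.19 to 0.82 for Arhgap27 and -0.33 to 0.14 for H2-Ob. For Tap2 they ran from -0.16 to 0.18, for C1qa from -0.10 to 0.17, for Trem2 from -0.53 to 0.16, for Cx3cr1 from -0.06 to 0.06, for Ccr2 from -0.21 to 0.93, for Nfkbia from -0.32 to 0.64, for Tlr1 from -0.31 to 1.05 and for Cxcr4 from -0.82 to 1.35.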

Other observations

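Some gene groups not described above had a larger median difference from naive under iguratimod in icKO than in control, with no gene of them passing in limma. Over all genes tested the median was 0.02 in both pairs, and the difference was larger in icKO, by signed value, for 50.7%. The counts below are not a test. Over 15 glycolysis genes the medians were 0.10 in control and 0.51 in icKO, and the difference was larger in icKO for 14 of the 15. Over 15 genes of lysosome and phagocytosis the medians were 0.06 and 0.65, with 11 larger in icKO. Over 12 galectins and annexins they were 0.19 and 0.52, with 10 larger in icKO. Over the 8 members of the Ms4a family, tetraspan membrane proteins of immune cells, they were 0.09 and 0.53, with 6 larger in icKO. Within it Ms4a4c went from a level of 9.19 in control naive to 10.05 under iguratimod, and from 8.96 to 11.53 in icKO. Ms4a6c went from 10.17 to 11.14 and from 10.75 to 12.42. In both genotypes the untreated EAE arrays were higher than the treated ones for these 2 genes, at 11.58 and 11.80 for Ms4a4c and 12.60 and 13.30 for Ms4a6c.

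Markers of other cells lay closer to naive. The medians were 0.07 and 0.00 over 9 markers of border-associated macrophages, 0.13 and -0.07 over 5 dendritic cell markers, and -0.13 and 0.10 over 5 markers of NK and cytotoxic cells. None of these genes passed in limma.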
